A study of Mus musculus with 23 samples.

Results

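Crypt cells of the neonatal mouse small intestine were compared between postnatal day 6 (P6) and postnatal day 3 (P3), by the read counts of the 3 libraries whose labels give crypt and P6 and the 3 whose labels give crypt and P3. These were 6 of the 23 libraries of the series. The mice were of the outbred CD1 stock. Epithelium was released with EDTA from the medial part of the small intestine, and cells positive for both Epcam and CD44 were sorted. No treatment or allele is given, and the groups differ by age. Poly(A) RNA was sequenced with a stranded kit. The other libraries are crypt cells at P0 and P10, whose levels are shown, and villus cells (Epcam-positive, CD44-negative), of which the 3 at P3 and 2 at P6 enter one comparison. All 23 libraries entered the fits, and the spread between replicates was estimated from all of them. Whether replicates are separate animals is not given in the labels. The p-values therefore reflect only how far libraries of the same group differ from one another, which may be technical.

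At birth the mouse small intestine carries villi but no crypts. In the following days proliferating cells between the villi, kept dividing by Wnt signals, sink into the wall and form crypts, while the enterocytes above them absorb milk lipid, take up milk protein by endocytosis and digest it in large lysosomes. Paneth cells, the lysozyme-secreting cells of the crypt base, appear later, and the enzymes of the solid diet are low until weaning.

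The sort markers were present in all 6 libraries. Epcam, the epithelial adhesion molecule used in the sort, had 1979, 2093 and 2107 CPM (counts scaled to the size of the library with TMM factors) at P3 and 2031, 2032 and 1878 at P6. Cd44, the other sort marker, had 50.6, 67.0 and 88.8 CPM at P3 and 151, 98.7 and 109 at P6, against 10.3 to 17.7 in P3 villus cells and 24.8 to 53.6 in P6 villus cells. Markers of cells outside the epithelium were low. The summed level of 20 immune cell markers was 21.5 to 33.2 CPM at P3 and 6.86 to 14.6 at P6, and among them Cd3e, Cd79a, Coro1a and Nkg7 had no count at P6. For 18 mesenchyme and smooth muscle markers it was 8.03 to 33.3 and 4.96 to 7.54 CPM, for 12 pancreatic acinar markers 9.77 to 17.2 and 3.45 to 4.24, and for 12 enteric neuron and glia markers 26.5 to 31.8 and 18.4 to 26.4. The sums of 10 endothelial markers (8.42 to 9.60 and 7.42 to 9.37 CPM) and of 6 erythroid markers (0.649 to 1.66 and 0.842 to 1.62 CPM) overlapped between the ages. In bulk samples, fewer cells of a type and less RNA per cell cannot be told apart.

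Library totals were 25792789 to 27890774 counts at P3 and 28024868 to 37055554 at P6. The ages differed in which transcripts were counted. The mean GC content of counted transcripts was 47.6%, 46.4% and 46.8% in P3 replicates 1, 2 and 3, and 45.2% ± 0.133 (SD, n = 3) at P6. Villus libraries differed likewise, with 47.3% ± 0.706 (SD, n = 3) at P3 and 45.2% ± 0.280 (SD, n = 2) at P6. Reads that the counting assigned to no feature made up 8.21% to 10.0% at P3 and 12.5% to 13.5% at P6. Mitochondrially encoded genes held 7.96% ± 1.59 and 10.3% ± 2.12 of the counts (SD, n = 3 each). The P3 replicates were not alike: replicate 1 lay farthest from the P6 libraries (median absolute log2 difference over genes of 0.756 to 0.894) and replicate 2 nearest (0.455 to 0.583).

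Every gene was therefore fitted in more than one way with edgeR's quasi-likelihood test: without correction, and with offsets that carry, for each library, a smooth trend on transcript GC content and length. GC content and length, here and throughout, are those of the longest annotated transcript of each gene. That transcript may not be the one counted, so corrections and trend directions of single genes are uncertain. A gene is called here when its adjusted p (Benjamini-Hochberg over all 16535 genes tested) is under 0.05 in the same direction in both fits. Without offsets 3101 genes (18.8%) were higher and 4291 (26.0%) lower at P6. With offsets 723 (4.37%) were higher and 3080 (18.6%) lower. Called in both were 386 genes (2.33%) higher and 2302 (13.9%) lower. Among these, 100 (0.605% of genes tested) were higher and 412 (2.49%) lower although the GC and length trend pointed the other way. The libraries of the ages did not overlap for 4544 genes (27.5%) higher and 5166 (31.2%) lower. The count of genes called higher moved with single libraries: it was 158 without P3 replicate 1, 179 without P6 replicate 1, 224 without P3 replicate 3 and 248 without P6 replicate 2, while the count called lower stayed between 1555 and 2522.

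A stricter fit, chosen after the data were seen, let each gene follow the mean GC content of the library as a covariate. It called 11 genes higher (0.0665%) and 178 lower (1.08%), and 2439 genes had an unadjusted p under 0.05. In all 3 fits 5 genes (0.0302%) were higher and 161 (0.974%) lower. The median gene changed by -0.08 on the log2 scale without offsets, by -0.17 with offsets and by -0.13 with the covariate. Across genes, the Spearman correlation between GC content and the change was -0.685 without offsets, -0.131 with them and -0.286 with the covariate, a description over genes of the same libraries. With offsets, the 817 genes of highest GC content (median 61.1%) still had a median change of -0.60. Scaling by library size alone moved the median gene to -0.40 without offsets and -0.48 with them, so changes are relative to the scaling.

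**Figure D1:**
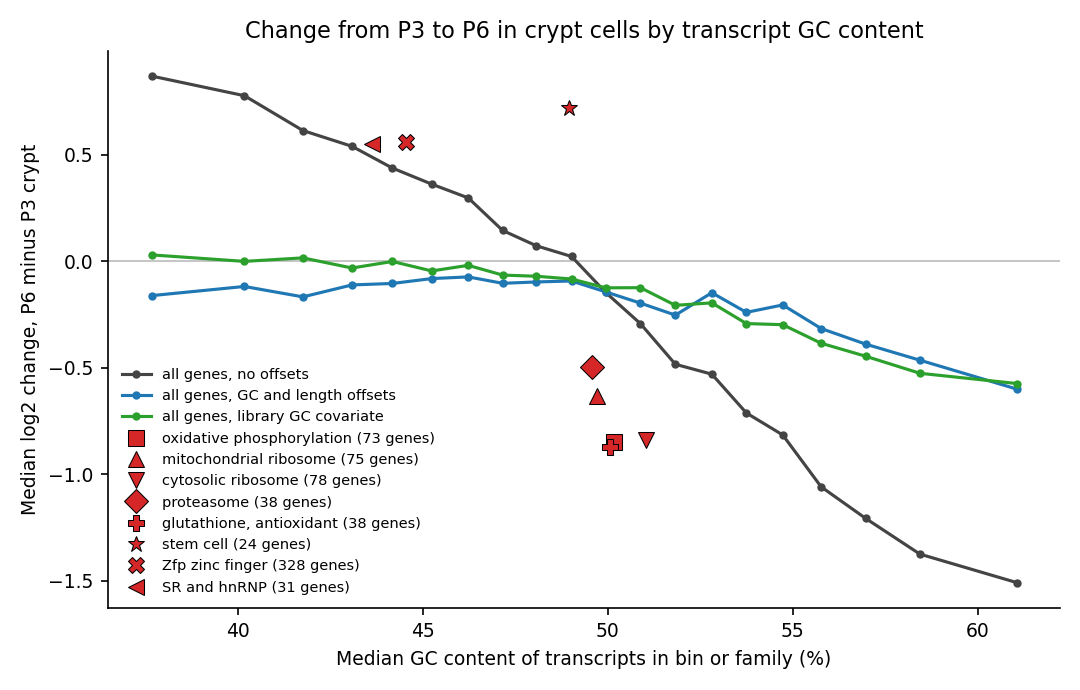
Median log2 change from P3 to P6 in crypt cells (y axis) against transcript GC content in percent (x axis). Lines join medians of 20 bins of genes for the fit without offsets (grey), with GC and length offsets (blue) and with library GC content as a covariate (green); red symbols are medians of gene families without offsets. Without offsets the bin medians run from 0.87 at the lowest GC content to -1.51 at the highest, the oxidative phosphorylation, ribosomal, proteasome and glutathione families lie below that line and the stem cell list above it.

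The family that fell most broadly was the nuclear-encoded oxidative phosphorylation genes, the subunits of the respiratory chain complexes and of ATP synthase. Of 73 members tested, 43 (58.9%) were called lower and 0 higher, beside 13.9% and 2.33% of all genes. Their median log2 change was -0.85 without offsets, -0.74 with offsets and -0.51 with the covariate, and 11 members were lower in all 3 fits. Each library left out in turn kept 38 to 41 lower calls. The mean log2 level of the family was 6.52, 6.19 and 6.27 in the P3 libraries and 5.12, 5.35 and 5.40 in the P6 libraries, so the ages did not overlap. At P0 it was 6.77 to 6.94 and at P10 6.14 to 6.36, and for 42 of the 73 members the 3 P6 libraries lay below all other crypt libraries, as they did for 25.3% of all genes.

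Ndufa13, an accessory subunit of complex I, had 26.7, 10.5 and 16.8 CPM at P3 and 1.5, 1.92 and 1.31 at P6. All P6 libraries were below all P3 libraries, and the gene fell by 3.52 ± 0.41 (SE) on the log2 scale without offsets and by 2.27 ± 0.24 with them (adjusted p = 9.83e-06, edgeR). It was also lower in the covariate fit (adjusted p = 0.00767). In the other crypt groups it had 82.3 to 121 CPM at P0 and 59.0 to 73.2 at P10, so P6 was the lowest of the 4 ages. Uqcr11, a small subunit of complex III, had 24.6, 7.14 and 12.4 CPM at P3 and 0.686, 1.28 and 1.5 at P6, a change of -2.41 ± 0.33 (SE) with offsets (adjusted p = 4.93e-05, edgeR). Its groups did not overlap, but in the covariate fit its adjusted p was 0.0688. Ndufa11 and Ndufb7, further complex I subunits, changed by -2.27 and -2.78 with offsets. Atp5g3 and Atp5c1 of ATP synthase, the uncalled members with the highest levels, had changes of -0.07 and 0.08 with offsets (adjusted p = 0.797 and 0.639, edgeR).

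The 13 genes encoded on mitochondrial DNA, which supply the remaining subunits of the same complexes, gave no called member among the 7 tested. Their median change was 0.67 without offsets and 0.03 with them.

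Mitochondrial ribosomal proteins, which translate those mitochondrial messages, were called lower for 37 of 75 members (49.3%, beside 13.9% of all genes), with 0 higher. The median changes were -0.63 without offsets, -0.55 with offsets and -0.23 with the covariate. In 15 of the 37 the fall ran against the GC and length trend, and 26 to 38 lower calls remained in number when each library was left out. Mrps16 had 27.1, 16.5 and 19.4 CPM at P3 and 5.49, 5.54 and 6.28 at P6. The groups did not overlap, and the change was -1.86 ± 0.25 (SE) without offsets and -1.98 ± 0.27 with them (adjusted p = 4.31e-05, edgeR). Mrpl17, with a GC content of 43.0% in its longest annotated transcript (7300 bases), had 32.7, 27.3 and 26.5 CPM at P3 and 20.6, 16.5 and 18.4 at P6. Every P6 value was lower, and the fall was larger with offsets (-1.71 ± 0.28, SE) than without (-0.64 ± 0.16). Mrpl4 was lower in all 3 fits, with 6.53 to 16.6 CPM at P3 and 1.03 to 2.24 at P6.

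Cytosolic ribosomal proteins, the building blocks of the ribosomes that translate all other messages, were called lower for 29 of 78 members (37.2%, beside 13.9% of all genes). Their median changes were -0.84 without offsets, -0.50 with offsets and -0.16 with the covariate, and 1 member, Rpl18, was lower in all 3 fits. For these genes, reads may be shared with many processed pseudogene copies, so single values are uncertain. Rps15 had 183, 48.0 and 87.8 CPM at P3 and 4.49, 5.41 and 8.67 at P6, without overlap, a change of -4.10 ± 0.56 (SE) without offsets and -2.86 ± 0.37 with them (adjusted p = 4.33e-05, edgeR). At P0 and P10 its levels were 358 to 477 and 302 to 458 CPM. Rpl18 had 60.7, 17.7 and 31.7 CPM at P3 and 1.87, 2.09 and 3.55 at P6, and Rps26 had 31.3 to 84.6 and 8.11 to 13.9 CPM. P3 replicate 2, which had the lowest GC content of the P3 libraries, was the lowest of them for 52 of the 78 members, as it was for 6243 of all 16535 genes, and the part of this in the result was not tested. Rps24 and Rps20, the uncalled members with the highest levels, had changes of -0.53 and 0.01 without offsets and -1.26 and -0.79 with them (adjusted p = 0.0816 and 0.0772 with offsets, edgeR).

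Proteasome subunits, which form the particle that degrades ubiquitin-tagged proteins, were called lower for 18 of 38 members (47.4%, beside 13.9% of all genes) and higher for 1, Psmd1. The median changes were -0.50, -0.44 and -0.43 in the fits without offsets, with offsets and with the covariate, and 5 members were lower in all 3. The called members included the beta subunits of the core particle from Psmb1 to Psmb10, the alpha subunit Psma2, and subunits of the regulatory particle such as Psmc4 and Psmd8. Psmb6, a catalytic core subunit, had 95.7, 57.3 and 70.0 CPM at P3 and 19.5, 20.4 and 23.4 at P6. The groups did not overlap, and the change was -1.36 ± 0.15 (SE) with offsets (adjusted p = 1.28e-05, edgeR). The immunoproteasome subunit Psmb10 had 39.2, 16.2 and 20.1 CPM at P3 and 2.18, 2.77 and 3.89 at P6, and was lower in all 3 fits. Psmd1, a scaffold of the regulatory particle, rose from 163 to 220 CPM at P3 to 257 to 305 at P6 (0.34 ± 0.12, SE, with offsets, adjusted p = 0.0404, edgeR), a call lost without P3 replicate 1 or 3 or P6 replicate 1 or 3 (0.24 to 0.36).

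Glutathione and antioxidant enzymes were called lower for 16 of 38 members (42.1%, beside 13.9% of all genes) and higher for 0. Their median changes were -0.87, -0.65 and -0.41 in the 3 fits. Among them were glutathione transferases of the Gstm cluster (Gstm1, Gstm2, Gstm3, Gstm4, Gstm5 and Gstm7), whose similar sequences may share reads. Mgst3, a microsomal glutathione transferase, had 162, 77.2 and 99.3 CPM at P3 and 17.8, 20.1 and 27.1 at P6. All P6 libraries were lower, the change was -2.02 ± 0.21 (SE) with offsets (adjusted p = 9.81e-06, edgeR), and the gene was lower in all 3 fits. Gpx2, the glutathione peroxidase of the gut epithelium, had 116, 54.5 and 74.1 CPM at P3 and 12.9, 23.1 and 21.7 at P6, with no overlap and a change of -2.21 ± 0.40 (SE) with offsets. Sod1, the cytosolic superoxide dismutase, had 136 to 195 CPM at P3 and 58.5 to 82.9 at P6. Mgst1 and Txn1 had values of -0.04 and -0.12 with offsets and were not called.

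**Figure D2:**
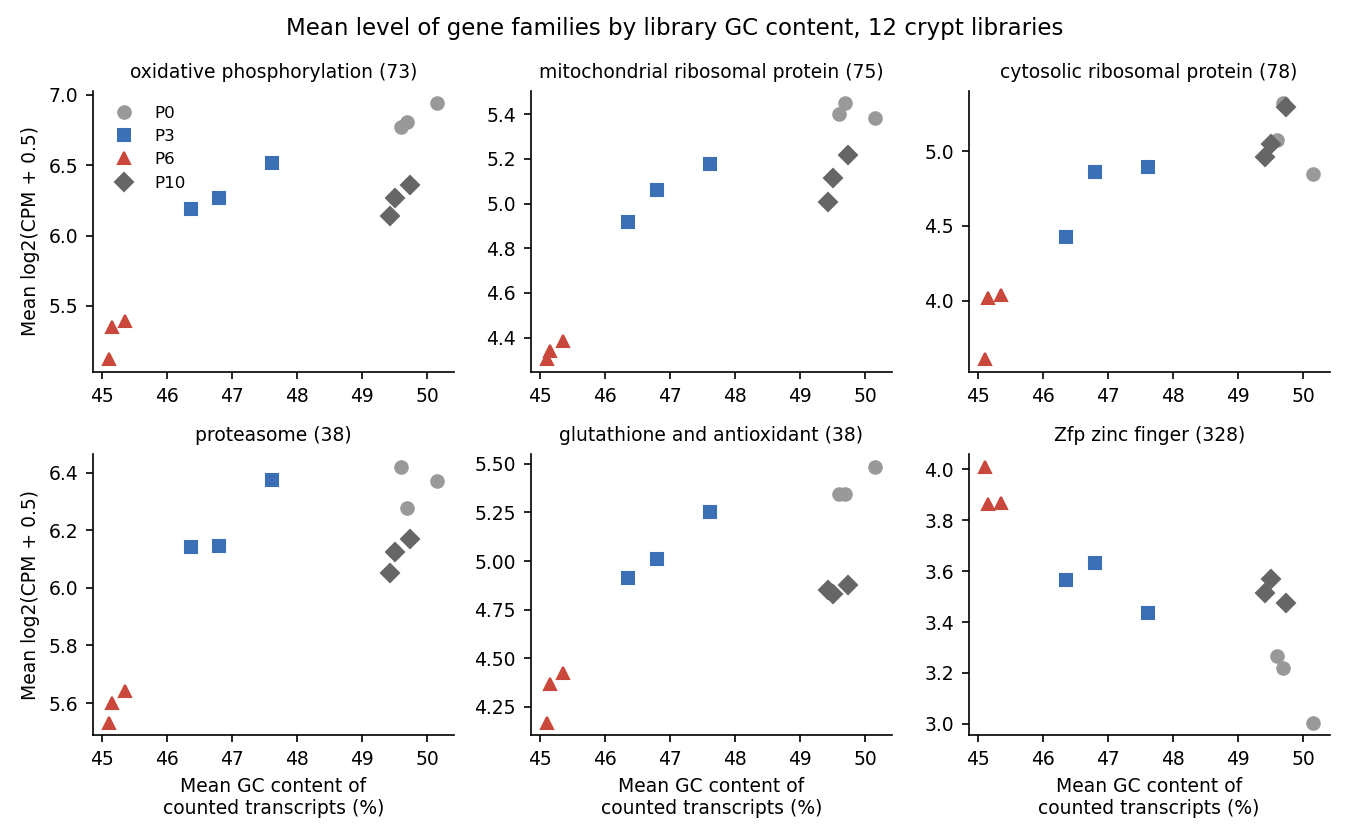
Mean log2(CPM + 0.5) of 6 gene families (y axes) against the mean GC content of counted transcripts in percent (x axes) for the 12 crypt libraries; each symbol is 1 library, by age, and the number of members is in brackets. The 3 P6 libraries have the lowest GC content and lie lowest for 5 families and highest for the Zfp zinc finger family. P10 libraries have a higher GC content than P3 libraries. At P10 cytosolic ribosomal levels (4.96 to 5.30) are above those at P3 (4.43 to 4.89), and glutathione levels (4.83 to 4.88) are below those at P3 (4.91 to 5.25). The other families overlap between P3 and P10.

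Glycolytic enzymes were lower as well. Of 25 glycolysis and hypoxia genes 7 (28.0%, beside 13.9% of all genes) were called lower and 0 higher, and all 7 were enzymes of glycolysis itself. Pfkp, a phosphofructokinase, had 119, 80.0 and 86.9 CPM at P3 and 55.1, 45.7 and 54.7 at P6, with no overlap, and a change of -1.52 ± 0.20 (SE) with offsets (adjusted p = 2.93e-05, edgeR). Aldoa, the aldolase, had 53.3 to 106 CPM at P3 and 10.8 to 16.8 at P6, and Gpi1, the isomerase, 66.5 to 108 and 24.2 to 36.5. No member was called in the covariate fit, where the median change of the list was -0.06.

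Among the largest falls outside the lists was that of Dad1, a subunit of the oligosaccharyltransferase that glycosylates proteins in the endoplasmic reticulum. It had 86.7, 40.5 and 52.7 CPM at P3 and 11.1, 12.3 and 15.2 at P6, and 93.7 to 110 and 86.9 to 97.3 at P0 and P10. P6 was the lowest age, and the change of -2.52 ± 0.30 (SE) with offsets (adjusted p = 2.31e-05, edgeR) ran against the GC and length trend and was also called in the covariate fit. Erp29, a chaperone of the same compartment, changed by -2.35 ± 0.37 (SE) with offsets, from 43.7 to 78.8 CPM to 15.2 to 19.2. Prap1, a secreted proline-rich protein of the gut epithelium, had 220, 66.4 and 76.5 CPM at P3 and 6.80, 13.8 and 18.2 at P6. Mvp, the major vault protein, and Crip1, a small LIM-domain protein, changed by -2.38 and -2.31 with offsets.

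The lists of enterocyte function held lower calls at shares from near that of all genes (13.9%) upwards. Lipid absorption genes were called lower for 7 of 25 members (28.0%), lysosomal genes for 9 of 30 (30.0%), suckling-type enterocyte genes for 4 of 15 (26.7%; Amn, Mamdc4, Naglu and Glb1) and mature enterocyte genes for 4 of 30 (13.3%; Vil1, Fabp1, Cdhr2 and Xpnpep2), with 0 higher in each. Fatty acid oxidation and ketogenesis genes were called lower for 6 of 25 (24.0%) and higher for 1. Their median changes with offsets were -0.77, -0.56, -0.96, -0.52 and -0.36 in that order. Without P3 replicate 1 the lower calls were 3 for lipid absorption, 3 for lysosome and 1 for mature enterocyte, and without P6 replicate 1 they were 3, 3 and 0. Leaving out P6 replicate 2 gave 4 lysosomal and 2 mature enterocyte calls, and leaving out P6 replicate 3 gave 7 of the latter.

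Mamdc4 and Amn belong to the endocytic apparatus by which suckling enterocytes take up luminal protein, Amn as the partner of cubilin. Mamdc4 had 806, 295 and 361 CPM at P3 and 76.2, 121 and 167 at P6, and Amn had 44.9, 16.0 and 20.3 and then 2.59, 4.98 and 4.70. Neither gene's groups overlapped, and the changes with offsets were -1.16 ± 0.27 and -1.61 ± 0.30 (SE; adjusted p = 0.00326 and 0.000566, edgeR). Slc27a4, a fatty acid transporter, and Scarb1, a lipoprotein receptor, changed by -1.16 and -1.49 with offsets. Fabp1, the fatty acid carrier of enterocytes, had 1718, 1092 and 644 CPM at P3 and 191, 424 and 539 at P6, a change of -1.70 ± 0.46 (SE) with offsets (adjusted p = 0.0113, edgeR). It was lower in every P6 library, but without P3 replicate 1 or P6 replicate 1 it was no longer called (-1.20 and -1.39). Vil1, the microvillus actin bundler, fell less, from 570 to 763 CPM to 304 to 367 (-0.47 ± 0.14, SE, with offsets), and its call was lost without the same libraries (-0.41 each). Lct, the lactase that digests milk sugar, had 708, 471 and 338 CPM at P3 and 169, 319 and 365 at P6, which overlapped, and it was called in neither fit. Sis, the sucrase-isomaltase of the solid diet, stayed between 7.72 and 23.6 CPM.

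Transport genes named beside these were Slc51a, a subunit of the basolateral bile acid exporter, and S100g, the vitamin D-dependent calcium-binding protein. Slc51a had 192, 74.5 and 67.7 CPM at P3 and 18.6, 34.8 and 41.9 at P6, and S100g had 283, 367 and 373 and then 174, 107 and 150. Both were lower in every P6 library, with changes of -1.91 ± 0.41 and -1.19 ± 0.26 (SE) with offsets. Slc51b, the exporter's other subunit, was also called lower, and these were the 3 calls among 11 bile acid, vitamin D and calcium genes (27.3%, beside 13.9% of all genes). Fth1, the ferritin heavy chain that stores iron, had 855 to 1111 CPM at P3 and 421 to 540 at P6. Acadvl, the very-long-chain acyl-CoA dehydrogenase of mitochondrial fatty acid oxidation, had 242, 160 and 152 CPM at P3 and 46.0, 48.7 and 75.3 at P6. In the other direction, Ppara, the nuclear receptor for fatty acids, had 9.63, 8.30 and 4.0 CPM at P3 and 21.2, 13.6 and 14.1 at P6, without overlap (1.32 ± 0.29, SE, with offsets, adjusted p = 0.00214, edgeR). It rose while 6 of the oxidation genes in its list fell.

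Among antimicrobial proteins 2 of 15 (13.3%, near the 13.9% of all genes) were called lower and 0 higher. Pglyrp1, a peptidoglycan-binding protein, had 43.5, 41.2 and 49.5 CPM at P3 and 7.70, 9.67 and 7.52 at P6. The P3 libraries were close to each other, all P6 libraries were far below them, and the fall of 1.73 ± 0.21 (SE) with offsets was also called in the covariate fit (adjusted p = 0.0268, edgeR). Lypd8, a secreted glycoprotein that holds flagellated bacteria off the epithelium, had 3778, 3150 and 4202 CPM at P3 and 1533, 1741 and 1715 at P6, against 2088 to 2338 at P0 and 1921 to 2163 at P10.

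Interferon response genes were called lower for 8 of 28 members (28.6%) and antigen presentation genes for 7 of 17 (41.2%), beside 13.9% of all genes. None was called higher in either list. The median changes were -0.81 and -1.52 without offsets and -0.67 and -0.86 with them. Without P3 replicate 1, P6 replicate 1 or P6 replicate 3 the interferon calls were 5, and without P6 replicate 2 the antigen presentation calls were 4. Both lists moved together with the immune cell markers given above, of which 6 of 14 tested (42.9%) were called lower. The part of these markers in the result was not tested. Ifi35, an interferon-induced protein, had 35.7, 19.2 and 20.2 CPM at P3 and 4.65, 6.98 and 6.44 at P6, with no overlap and a change of -1.28 ± 0.23 (SE) with offsets (adjusted p = 0.00034, edgeR). Psmb8, an immunoproteasome subunit on the antigen presentation list, had 35.3, 23.4 and 24.4 CPM at P3 and 4.52, 8.18 and 8.25 at P6. Bst2, which tethers enveloped viruses, had 3.55 to 6.05 CPM at P3 and 0.771 to 1.19 at P6. Isg15, a ubiquitin-like protein, had 4.03, 1.58 and 1.36 CPM at P3 and 0.156, 0.724 and 0.154 at P6, and it was not called with offsets without P3 replicate 1, P6 replicate 1 or P6 replicate 3 (-1.62, -1.83 and -1.81).

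Interferon acts through ISGF3, a transcription factor complex that binds the interferon-stimulated response element of its target promoters. The letters of that element are GAAA, any 2 bases and GAAA again. They were searched on both strands in the 250 bases before the start of each gene in RefSeq's promoters (GRCm38.p6, another build than the counts). Of the 28 list members 21 were matched there, and 8 of them (38.1%) held the letters, beside 287 of 11056 tested genes (2.6%) and 821 of 27025 promoters (3.04%). The list holds genes known to respond to interferon, so this higher share says nothing about the change between the ages. Among the 8 called members the letters were found in 4 (Isg15, Bst2, Oas1a and Oas1g, the last a near-identical pair). The stretches below show Isg15 and Bst2, which fell, and Ifit1, which also holds the letters and was not called (-0.68 with offsets, adjusted p = 0.28, edgeR). They are written 5′ to 3′ on the gene's strand with every match in capitals; matches overlap each other in Isg15 and Bst2.
Isg15, chr4:156200860-156200911, minus strand, 93 to 42 bases before the start: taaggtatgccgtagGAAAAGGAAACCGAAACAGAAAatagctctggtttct
Bst2, chr8:71537572-71537617, minus strand, 145 to 100 bases before the start: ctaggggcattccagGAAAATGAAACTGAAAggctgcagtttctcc
Ifit1, chr19:34640770-34640828, plus strand, 119 to 61 bases before the start: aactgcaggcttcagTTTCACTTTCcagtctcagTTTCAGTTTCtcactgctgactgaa
A match describes the letters in this window and is no measure of binding.

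**Figure D3:**
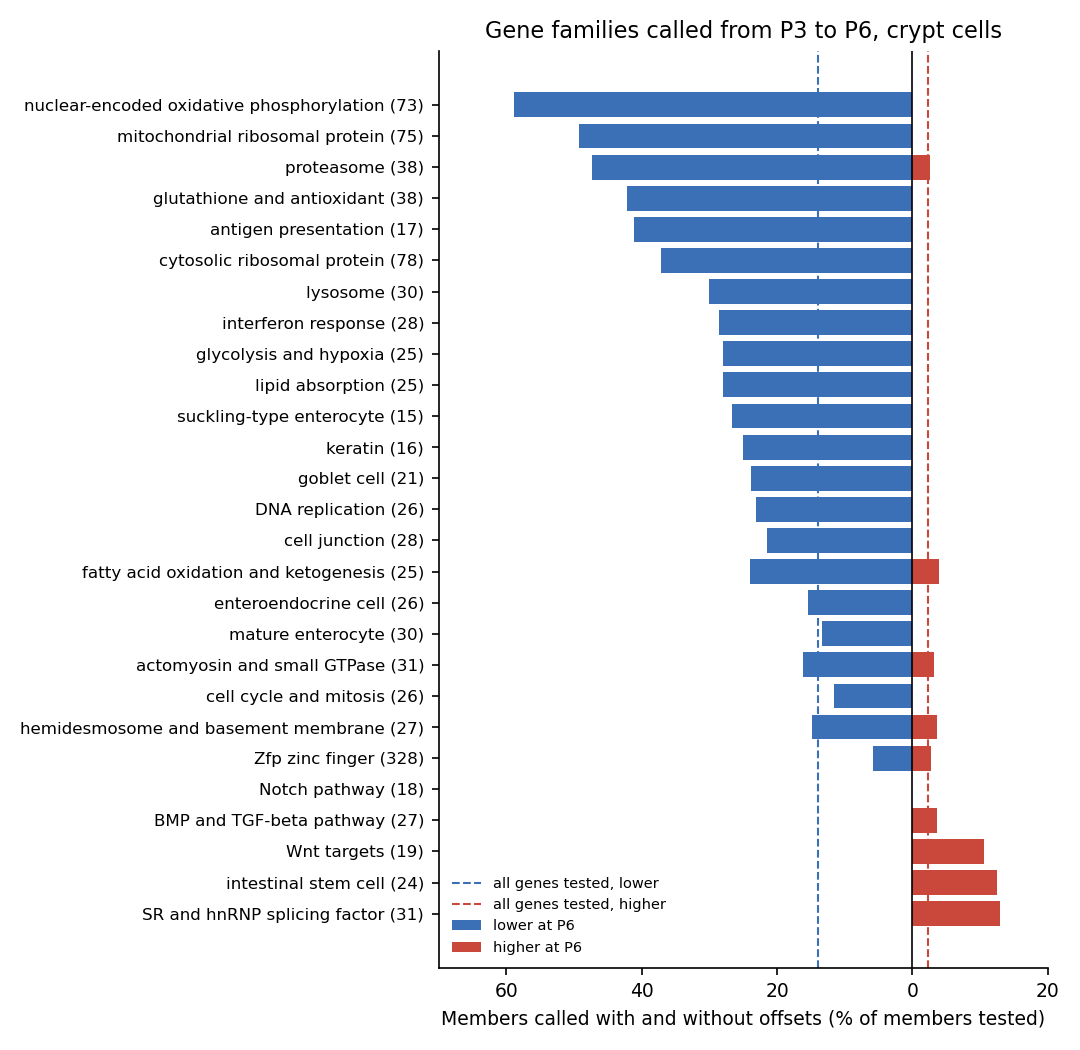
Share of tested members, in percent (x axis), called lower (blue, to the left) or higher (red, to the right) at P6 in both fits for 27 gene lists, with the number tested in brackets; dashed lines are the shares of all genes, 13.9% lower and 2.33% higher. The oxidative phosphorylation bar reaches 58.9%, and no member was called lower in the stem cell, Wnt target, BMP, Notch and SR and hnRNP lists.

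The intestinal stem cell list was one of the few with more members higher than lower. Of 24 members 3 (12.5%; Rnf43, Rgmb and Sox9) were called higher and 0 lower, beside 2.33% and 13.9% of all genes. The median change was 0.72 without offsets, 0.36 with offsets and 0.19 with the covariate, and 0.41 and 0.05 without and with offsets under scaling by library size alone. The list rose in villus cells too, with a median change of 1.08 without offsets, 13 members higher and 1 lower, beside 21.7% and 26.4% of all genes. The median difference crypt minus villus was -0.44, and no member was called different. Without P3 replicate 1 only 1 of the 3 crypt calls was left. Rnf43, a membrane ubiquitin ligase that removes Wnt receptors and is itself a Wnt target, had 100, 108 and 92.5 CPM at P3 and 191, 135 and 159 at P6. All P6 libraries were higher, and the rise of 0.69 ± 0.19 (SE) without offsets and 1.26 ± 0.21 with them (adjusted p = 0.000229, edgeR) ran against the GC trend, as its transcript has a GC content of 56.1%. At P10 it had 229 to 264 CPM. Sox9, a transcription factor of crypt progenitors and Paneth cells, had 134, 155 and 193 CPM at P3 and 298, 273 and 274 at P6, a rise of 0.64 ± 0.20 (SE) with offsets (adjusted p = 0.0272, edgeR). Rgmb, a BMP co-receptor, had 9.63, 11.2 and 12.5 CPM at P3 and 27.1, 25 and 23.1 at P6, with no overlap. With offsets the Rgmb call was lost without P3 replicate 1 or 2 (0.63 and 0.59), and the Sox9 call was kept only without P3 replicate 3 (0.53 to 0.65 in the others).

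Other genes known from stem cells were not called in both fits. Lgr5, the receptor that marks the stem cells of the crypt base, had 105, 187 and 215 CPM at P3 and 374, 319 and 300 at P6. Every P6 library was higher, with a change of 0.97 ± 0.32 (SE) without offsets (adjusted p = 0.0196, edgeR) and 0.31 ± 0.29 with them (adjusted p = 0.506, edgeR). Without P3 replicate 1 or P6 replicate 1 it was not called without offsets (0.72 and 0.87). In villus cells Lgr5 changed by 1.85 ± 0.36 (SE) without offsets. Olfm4, a secreted stem cell marker, had 1946, 3474 and 2862 CPM at P3 and 6929, 4638 and 3946 at P6. Its groups did not overlap, but it passed neither fit (adjusted p = 0.0637 and 0.584, edgeR). Axin2, a feedback target of Wnt signalling, had 69.4, 46.3 and 58.1 CPM at P3 and 84.6, 70.9 and 80.1 at P6 and passed only with offsets (0.89 ± 0.26, SE, adjusted p = 0.0165, edgeR), and not without P3 replicate 2 or P6 replicate 1 (0.77 and 0.82). Cd44 changed by 0.80 without offsets and 0.01 with them. Among 19 Wnt targets tested the 2 called (10.5%, beside 2.33% of all genes), both higher, were Rnf43 and Sox9. Of these, 1 was left when any library but P3 replicate 3 was left out. Wnt4, Lrp5 and Dvl1 were the 3 called lower among 27 Wnt ligands, receptors and pathway genes (11.1%, near the 13.9% of all genes). None of 18 Notch pathway genes was called.

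Smad4, the shared transducer of BMP and TGF-beta signals, was the 1 call among 27 members of that list (3.7%, near the 2.33% of all genes). It had 131, 192 and 165 CPM at P3 and 318, 298 and 262 at P6, and 116 to 138 and 106 to 138 at P0 and P10. P6 was the highest age, and the change was 0.85 ± 0.18 (SE) without offsets and 0.81 ± 0.17 with them (adjusted p = 0.00131, edgeR). The covariate fit gave 0.10, with an adjusted p of 0.851.

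Other genes that rose in both fits included Arf6, a small GTPase of endosome recycling and membrane traffic, whose transcript is GC-rich. It had 201, 299 and 279 CPM at P3 and 442, 452 and 400 at P6. All P6 libraries were higher, by 0.73 ± 0.17 (SE) without offsets and 1.82 ± 0.31 with them (adjusted p = 0.00033, edgeR), and its P0 and P10 levels were 202 to 232 and 150 to 182 CPM. Hipk2, a nuclear kinase, had 27.6, 40.9 and 21.5 CPM at P3 and 163, 76.8 and 84.6 at P6. Its rise was similar without and with offsets (1.85 and 1.81). Lcor, a corepressor of nuclear receptors, and Zc3h11a, a zinc finger protein of mRNA export, rose by 1.71 and 1.64 with offsets. Hnrnpa0, an RNA-binding protein, had 365, 537 and 544 CPM at P3 and 839, 864 and 745 at P6. Its rise of 1.48 ± 0.26 (SE) with offsets was larger than that without (0.76 ± 0.18). None of these 5 genes was called in the covariate fit.

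Higher in all 3 fits were 5 genes, named after their values were seen: B4galt1, Glg1 and the predicted genes Gm18867, Gm42735 and Gm43961. B4galt1, the Golgi galactosyltransferase that also makes lactose in mammary gland, had 13.6, 9.08 and 11 CPM at P3 and 39.9, 28.7 and 26.4 at P6. The groups did not overlap, and the change was 1.5 without offsets, 1.47 ± 0.23 (SE) with them (adjusted p = 0.000134, edgeR) and 1.93 with the covariate (adjusted p = 0.0244). At P0 it had 6.07 to 8.14 CPM and at P10 33.1 to 44.1. Glg1, a Golgi glycoprotein, had 93.4, 101 and 84.3 CPM at P3 and 199, 145 and 159 at P6, and with offsets its call (0.50) was lost without P3 replicate 3 or P6 replicate 1 (0.44 and 0.41). Fut4, a Golgi fucosyltransferase, was called higher in the first 2 fits, from 14.2 to 21.5 CPM to 33.7 to 41.5, while St3gal1, a sialyltransferase of mucin-type glycans, was called lower, from 374 to 573 CPM to 248 to 282. Of 17 sialyl- and fucosyltransferases 2 were called higher (Fut4 and Fut11) and 2 lower (St3gal1 and St3gal3). Each is 11.8%, beside 2.33% higher and 13.9% lower of all genes, and 1 was higher without P3 replicate 1, P3 replicate 2 or P6 replicate 1.

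Of 22 gut transcription factors 4.55% were called higher and 13.6% lower, near the 2.33% and 13.9% of all genes. Foxa1, a pioneer factor of endoderm, had 43.8, 58.8 and 58.1 CPM at P3 and 106, 79.0 and 81.0 at P6, a rise of 1.26 ± 0.30 (SE) with offsets (adjusted p = 0.00424, edgeR). The fit without offsets lost it without P3 replicate 1 or P6 replicate 1 (0.60 and 0.58), and the covariate gave -0.23. Cdx1, a homeobox factor of intestinal identity, had 90.5, 49.1 and 69.2 CPM at P3 and 16.5, 18.2 and 17.2 at P6. The groups did not overlap, and it was lower in all 3 fits, with a change of -0.89 ± 0.13 (SE) with offsets and a level of 213 to 240 CPM at P10. Its GC content is 62.1%, and the bin of genes of highest GC content (median 61.1%) had a median change of -0.60 with offsets. Elf3, an epithelial factor of enterocyte and goblet cell maturation, changed by -0.70 ± 0.18 (SE) with offsets, from 183 to 286 CPM to 58.3 to 86.3. Prdm1, a repressor that holds the suckling programme in place, had 155 to 200 CPM at P3 and 200 to 240 at P6 and was not called.

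**Figure D4:**
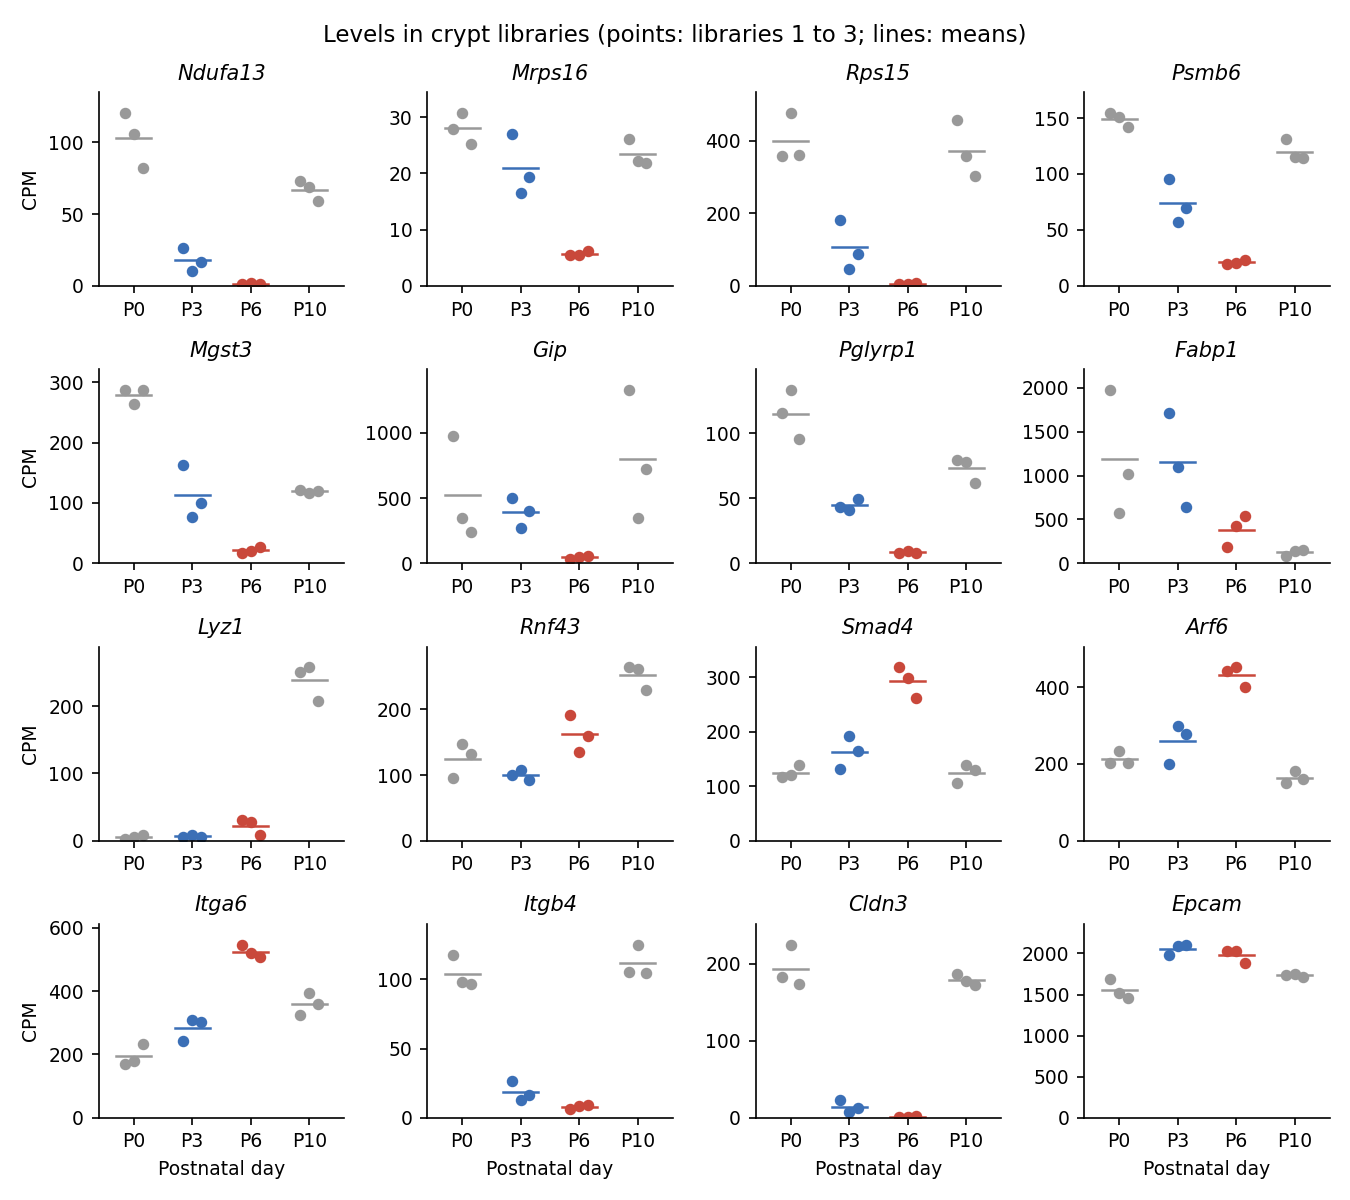
Level in CPM (y axes, from 0) of 16 genes in the crypt libraries of postnatal days 0, 3, 6 and 10 (x axes); points are libraries 1 to 3 of each age, lines are means, P3 is blue and P6 red. Smad4 and Arf6 are highest at P6, Rps15, Psmb6, Pglyrp1 and Cldn3 are lowest at P6, and Lyz1 and Rnf43 are higher at P10 than at P6.

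Secretory cell genes changed unevenly. Lyz1, the lysozyme of Paneth cells, had 5.43, 7.84 and 5.09 CPM at P3 and 30.0, 28.3 and 8.52 at P6, a rise of 1.94 ± 0.44 (SE) with offsets (adjusted p = 0.00354, edgeR). P6 replicate 3 lay only just above the highest P3 library, and at P10 the level was 208 to 258 CPM. The CD44-negative villus cells had more Lyz1 than crypt cells, with 9.66 to 15.3 CPM at P3 and 40.1 and 40.3 at P6. Lyz1 was the 1 call among 14 Paneth cell genes tested (7.14%, beside 2.33% of all genes). Mmp7, another Paneth cell product, had 2.12 to 7.22 CPM at P3 and 2.08 to 10.8 at P6. Its villus levels were 6.93 to 19.9 CPM at P3 and 22.1 and 10.2 at P6. Goblet cell genes were called lower for 5 of 21 (23.8%, beside 13.9% of all genes), namely Tff3, Fcgbp, Spink4, Spdef and Qsox1. The calls were 2 without P3 replicate 1 or P6 replicate 3, and 3 without P3 replicate 3, P6 replicate 1 or P6 replicate 2. Tff3, the trefoil peptide of goblet cells, had 106, 52.5 and 84.9 CPM at P3 and 9.01, 13.3 and 11.1 at P6, and it changed by -1.94 ± 0.28 (SE) with offsets (adjusted p = 6.71e-05, edgeR). Muc2, the mucin that the same cells secrete, overlapped between the ages, with 24.8 to 35.5 and 15.8 to 30.0 CPM.

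Enteroendocrine genes were called lower for 4 of 26 (15.4%, near the 13.9% of all genes; Pax4, Gip, Sct and Ghrl), and 2 calls were left without P3 replicate 1 and 1 without any of the P6 libraries. Gip, the incretin hormone of K cells, had 501, 272 and 397 CPM at P3 and 32.9, 51.2 and 56.9 at P6. The groups were far apart, and the change was -2.35 ± 0.53 (SE) with offsets (adjusted p = 0.00332, edgeR), beside a level of 240 to 976 CPM at P0 and 343 to 1328 at P10. Chga, the granin of enteroendocrine granules, had 8.76 to 17.8 CPM at P3 and 2.65 to 5.24 at P6 and passed only without offsets. Dclk1, a tuft cell marker, was at or below 0.213 CPM in all 6 libraries.

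Hemidesmosome and basement membrane genes were called at shares near those of all genes, 4 of 27 lower (14.8%, beside 13.9%) and 1 higher (3.7%, beside 2.33%). Hemidesmosomes anchor the epithelial cell to the basement membrane through the integrin pair of alpha 6 (Itga6) and beta 4 (Itgb4), with plectin (Plec) as the link to keratin. Itga6 had 244, 310 and 301 CPM at P3 and 547, 520 and 506 at P6, whereas Itgb4 had 26.4, 12.8 and 16.4 and then 6.49, 8.47 and 8.94. All P6 libraries were higher for the first and lower for the second, with changes of 0.65 ± 0.23 and -0.62 ± 0.18 (SE) with offsets (adjusted p = 0.0466 and 0.0179, edgeR). Itgb4 has a GC content of 60%, and its fall is near that of genes of like GC content. The bins of genes with median GC contents of 58.4% and 61.1% had median changes of -0.46 and -0.60 with offsets. The Itga6 call with offsets was lost when any library was left out (0.56 to 0.69), its change with the covariate was -0.086, and the call of Itgb4 was lost without P3 replicate 1 or P6 replicate 1 (-0.45 and -0.49). Plec had 25.9, 12.1 and 17.2 CPM at P3 and 6.74, 7.2 and 6.94 at P6, and Itga3, the laminin-binding alpha 3 chain, had 33.9 to 78.2 and 11.4 to 17.3. The other lower call of this list was Agrn, and without P6 replicate 1 the lower calls were 2.

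Keratins 8, 18, 19 and 7 were the 4 calls, all lower, among 16 keratins (25%, beside 13.9% of all genes). Krt18, which pairs with Krt8 in simple epithelia, had 424, 273 and 324 CPM at P3 and 72.0, 67.6 and 90.4 at P6, a fall of 1.14 ± 0.17 (SE) with offsets (adjusted p = 7.69e-05, edgeR) that was also called in the covariate fit. Krt8 had 480, 240 and 307 CPM and then 82.7, 84.3 and 90.6, without overlap. Cell junction genes were called lower for 6 of 28 (21.4%, beside 13.9% of all genes) whichever library was left out, and higher for 0. Cldn3, a sealing claudin of tight junctions, had 22.9, 7.34 and 12.7 CPM at P3 and 1.03, 1.36 and 1.73 at P6, and Cldn15, a claudin that passes sodium, had 189, 145 and 173 and then 59.2, 65.7 and 69.5. Cldn15 was lower in all 3 fits (-0.69 ± 0.11, SE, with offsets, adjusted p = 0.000138, edgeR). Jup, the plakoglobin of desmosomes, had 42.3 to 93.5 CPM at P3 and 14.0 to 17.1 at P6. Of 31 actomyosin and small GTPase genes 5 (16.1%, near the 13.9% of all genes) were called lower and 1, Diaph1, higher, and without P3 replicate 3 the lower calls were 3; Diaph1 was not called without P3 replicate 3 or P6 replicate 1. Myl6, the non-muscle myosin light chain, had 36.3, 20.5 and 18.9 CPM at P3 and 4.18, 5.32 and 6.78 at P6, and Cfl1, an actin-severing protein, and Myh14, a myosin heavy chain, changed by -1.07 and -1.06 with offsets. Myh9, the main non-muscle myosin heavy chain, and Rac1, a small GTPase of actin remodelling, overlapped between the ages (149 to 176 and 162 to 171 CPM, and 313 to 343 and 321 to 350 CPM) and were not called.

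Of 26 cell cycle and mitosis genes, 13 were higher and 7 lower without offsets, beside 18.8% and 26.0% of all genes. In both fits 0 were higher and 3 lower (Ccnb2, Cdc20 and Birc5, 11.5% beside 13.9% of all genes). Of these 3, 1 was left without P3 replicate 1 or P6 replicate 2. Mki67, the proliferation antigen, had 505, 661 and 574 CPM at P3 and 1360, 889 and 962 at P6, which was a change of 0.88 ± 0.25 (SE) without offsets (adjusted p = 0.00666, edgeR) and 0.10 ± 0.21 with them (adjusted p = 0.788, edgeR); the call without offsets was lost without P6 replicate 1 (0.68). Birc5, the survivin of dividing cells, had 94.7, 89.8 and 94.4 CPM at P3 and 55.6, 56.9 and 59.4 at P6, and fell by 0.90 ± 0.17 (SE) with offsets, against the trend. Its libraries were tight within each age and did not overlap. Of 26 DNA replication genes 6 (23.1%, beside 13.9% of all genes) were called lower and 0 higher, with a median change of -0.30 with offsets. Tk1, the thymidine kinase of S phase, had 33.8, 16.2 and 21.3 CPM at P3 and 5.39, 6.94 and 7.59 at P6, and Chaf1a, a histone chaperone of replication, had 26.1 to 44.8 and 14.0 to 19.1.

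The median changes of several families were smaller in size with offsets than without. Of 328 Zfp zinc finger genes, a family of AT-rich transcripts with a median GC content of 44.6%, 149 were higher without offsets, beside 18.8% of all genes. In both fits 9 members were higher (2.74%) and 19 lower (5.79%), beside 2.33% and 13.9% of all genes. The family's median change went from 0.56 without offsets to -0.01 with them. The higher calls were 2 without P3 replicate 1 or P6 replicate 1, and the lower calls were 7 without P3 replicate 1 or P6 replicate 2, 10 without P3 replicate 3 and 11 without P6 replicate 1. Of 31 SR and hnRNP splicing factors, 22 were higher without offsets (beside 18.8% of all genes), with a median of 0.55. With offsets their median was 0.00, and 6 were higher and 5 lower, beside 4.37% and 18.6% of all genes. In both fits 4 (12.9%, beside 2.33% of all genes) were called higher (Hnrnpa0, Srsf2, Hnrnpab and Hnrnpf), of which 1 was left without P3 replicate 1 and 2 without P6 replicate 1 or 2. Immediate early genes, which respond within minutes to handling and growth signals, gave no call among 26, with medians of -0.49 without offsets, 0.10 with offsets and -1.30 with the covariate.

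The last comparison asked whether the change from P3 to P6 in crypt cells differed from that in villus cells, by the difference between the changes in one edgeR model. No gene was called (0 of 16535, 0%), 272 genes had an unadjusted p under 0.05, and DESeq2 and limma-voom also called 0. In villus cells 3585 genes (21.7%) were higher and 4368 (26.4%) lower without offsets. The median absolute log2 change was 0.669 in crypt and 0.811 in villus cells, and that of the difference 0.236. Of the 73 oxidative phosphorylation genes 53 were lower in crypt and 58 in villus cells without offsets, beside 26.0% and 26.4% of all genes. Their median difference crypt minus villus was 0.36, beside 0.01 over all genes. Across genes that difference had a Spearman correlation of 0.303 with GC content. Gip, which falls in both populations, had 12.2 to 34.5 CPM in P3 villus and 2.12 to 4.22 in P6 villus cells, and Pglyrp1 had 20.7 to 44.7 and 4.77 to 4.95. Arf6, Smad4 and Itga6 were higher in both P6 villus libraries than in the P3 villus libraries (605 and 604 against 285 to 408 CPM for Arf6). With 2 P6 villus libraries, the test leaves wide errors: for Rnf43 the difference crypt minus villus was -0.05 ± 0.29 (SE).

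**Figure D5:**
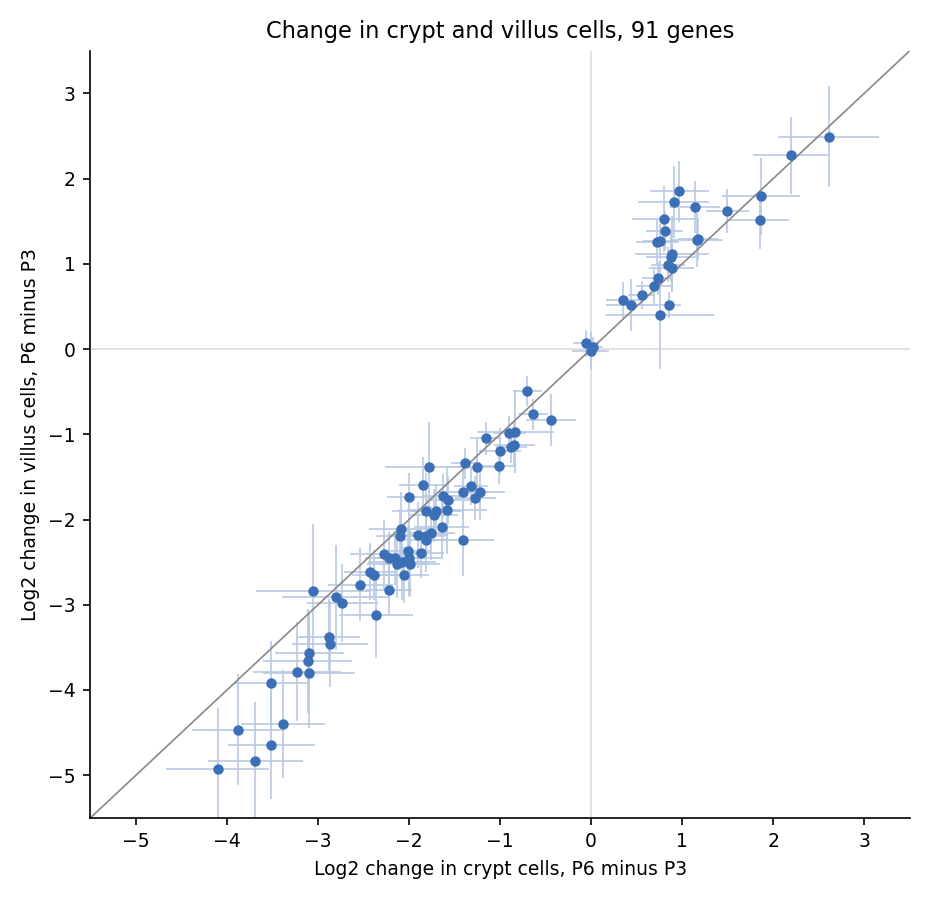
Log2 change from P3 to P6 in villus cells (y axis) against that in crypt cells (x axis) without offsets for the genes described in the text; points are estimates, bars are standard errors and the diagonal marks equal change. The points run from -4.10 for Rps15 to 2.61 for Lcor in crypt cells. Most genes that fell lie below the diagonal, with a larger fall in villus cells, and no difference between the populations passed the test.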

How the data were processed

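Read counts per gene were deposited by the authors, one table per library; per the submitters' processing notes, Trim Galore, STAR, HTSeq and the mm9 genome were used, and their settings, strand among them, are not given in the sources used here. The 5 summary lines of each table (no feature, ambiguous and the like) were left out of totals and tests. Counts of all 23 libraries were fitted with edgeR 4.0.16 in R 4.3.3 (TMM, robust quasi-likelihood, a coefficient per group, 15 residual degrees of freedom) after filterByExpr (minimum count 10, minimum total 15), which left 16535 genes. Offsets came from natural splines (5 degrees of freedom) on the GC content and length of the longest transcript per symbol in GENCODE for GRCm38, matched for 98.8% of genes. CPM values are TMM-scaled. The fits were tested on simulated data. Groups came from the labels. Replicate numbers did not pair the samples. Genes were named by a rule on size of change, list membership and a fixed set; the members and lists were chosen with earlier results of these data known. Alternatives were DESeq2 1.42.0, limma-voom (limma 3.58.1), other scalings and filters, and each library left out. Some items are not reported here.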

Additional observations from a re-analysis of the deposited data

How the results depend on the processing

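The fit with the library GC covariate called 11 genes higher and 178 lower, beside 3101 and 4291 without offsets. Scaling by library size alone gave 1327 higher without offsets, 274 higher and 6346 lower with offsets, and 124 higher and 4202 lower in both, so the share of higher calls depends on the scaling. Offsets for GC content alone gave 1189 higher with offsets, and fitting only the groups compared gave 1104 higher with offsets and 585 higher in both. Leaving out each library gave 1816 to 2930 higher and 3296 to 4560 lower without offsets, 297 to 605 higher and 2015 to 3430 lower with offsets, and 158 to 305 higher and 1555 to 2522 lower in both. Of the 2688 genes called in both, 62.9% were still called without P3 replicate 1 and 98.2% without mitochondrially encoded genes, the lowest and highest share among the alternatives applied to both fits; 5 higher and 161 lower were also called with the covariate. Foxa1 and Itga6 changed sign with the covariate (-0.23 ± 0.25 and -0.086 ± 0.32, SE), where neither was called. Rac1, not called without offsets under TMM scaling, reversed under library size alone (-0.29) and was called lower there. The cause was not tested. The replicate numbers did not pair the samples: the deviations of same-numbered libraries correlated at -0.215, 0.0835 and -0.143. With the replicate number as a block 3027 genes were higher and 4216 lower without offsets, 693 and 2971 with offsets, 365 and 2222 in both, and 0 differed between crypt and villus.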

Other observations

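Some lists not described above also had called members. Ribosome biogenesis genes were called lower for 6 of 30 (Bop1, Pes1, Nop16, Mybbp1a, Ebna1bp2 and Noc2l), or 20% beside 13.9% of all genes. The count was 3 without P3 replicate 1 or P6 replicate 2. Cholesterol synthesis genes were called lower for 3 of 25 (Pmvk, Ebp and Tm7sf2), a share of 12% that is near the 13.9% of all genes. The count stayed at 3 whichever library was left out. The mitochondrial chaperonins Hspd1 and Hspe1 were the 2 called higher among 15 heat shock genes (13.3%, beside 2.33% of all genes). Ahsa1 was the 1 called lower (6.67%, beside 13.9%). Without any library but P6 replicate 1 no heat shock gene was called higher, and 1 was without that library. No member was called in both fits among 11 Hox genes, 19 imprinted genes, 20 fetal programme and YAP target genes, 17 circadian clock genes and 11 adult-type enterocyte genes.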
